A study of Homo sapiens with 6 samples.

Results

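Cells of the established line Panc-1, which was derived from a human pancreatic ductal carcinoma, were transfected with pCIG-Gli3T, which carries a dominant-negative repressor form of the Gli transcription factors of the hedgehog pathway, or with the empty pCIG vector, and GFP-positive cells were sorted 24 h later. RNA was measured on 6 Affymetrix arrays, 3 labelled Gli3T and 3 labelled empty vector, all from this 1 cell line and all transfected by lipofection. The genes described here are CDK1, CDC25B, UBE2C, MELK, HJURP, NCAPH, SMC3 and CDCA4, 8 of the 405 genes in the table of selected genes that the authors deposited, picked from it by their symbols. That table was selected on this same comparison, so the 8 differences are given as measured levels with no test. All 8 were found in the deposited value table of 32321 probe sets, which gave a log2 RMA value for every array.

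These genes serve cell division. The kinase CDK1 with its cyclin partner drives entry into mitosis, and phosphatases of the CDC25 family switch it on by removing inhibitory phosphates. Condensin compacts chromosomes, cohesin holds sister chromatids together, and a ubiquitin ligase, the anaphase-promoting complex, lets them part by marking cyclin B and securin for destruction. Messages of many mitotic genes peak in G2 and M phase, under repression by the DREAM complex earlier in the cycle. The arrays measured bulk RNA, so a different share of cells in a phase of the cycle and a different amount of RNA per cell cannot be told apart.

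The DREAM and MMB complexes bind a short promoter element, the cell cycle genes homology region or CHR, and the factor NF-Y binds CCAAT boxes that often lie beside it. RefSeq promoter windows of GRCh38.p14, 250 bases before to 50 bases after a gene start, were at hand for 7 of the 8 genes, in 11 windows, with none for UBE2C. The windows below are shown because they hold TTTGAA, with 1 of the 2 overlapping CDK1 windows, the one with more matches. They are set 5′ to 3′ on the gene's strand, with capitals on every match to TTTGAA (CHR), TTTAAA (a CHR variant) or CCAAT on either strand.
CDK1 (second of its windows, chr10:60778228-60778527, plus strand): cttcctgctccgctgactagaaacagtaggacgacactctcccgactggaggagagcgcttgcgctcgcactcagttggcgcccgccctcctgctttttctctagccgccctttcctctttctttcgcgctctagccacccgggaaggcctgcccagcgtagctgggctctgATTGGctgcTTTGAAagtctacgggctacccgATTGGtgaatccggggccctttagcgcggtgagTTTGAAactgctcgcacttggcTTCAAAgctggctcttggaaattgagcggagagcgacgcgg
HJURP (chr2:233854486-233854785, minus strand): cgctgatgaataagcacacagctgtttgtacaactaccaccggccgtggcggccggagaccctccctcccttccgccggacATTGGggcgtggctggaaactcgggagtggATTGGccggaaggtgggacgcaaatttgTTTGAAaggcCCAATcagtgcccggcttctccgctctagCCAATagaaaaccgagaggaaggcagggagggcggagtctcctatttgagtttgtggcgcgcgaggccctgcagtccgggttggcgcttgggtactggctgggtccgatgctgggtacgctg
CDCA4 (chr14:105021034-105021333, minus strand): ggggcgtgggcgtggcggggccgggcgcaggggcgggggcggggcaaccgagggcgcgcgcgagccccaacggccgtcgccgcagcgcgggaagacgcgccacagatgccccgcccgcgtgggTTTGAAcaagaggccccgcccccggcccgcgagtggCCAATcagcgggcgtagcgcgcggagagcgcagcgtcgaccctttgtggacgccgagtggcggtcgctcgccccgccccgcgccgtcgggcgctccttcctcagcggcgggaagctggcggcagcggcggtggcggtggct
SMC3 (chr10:110567445-110567744, plus strand): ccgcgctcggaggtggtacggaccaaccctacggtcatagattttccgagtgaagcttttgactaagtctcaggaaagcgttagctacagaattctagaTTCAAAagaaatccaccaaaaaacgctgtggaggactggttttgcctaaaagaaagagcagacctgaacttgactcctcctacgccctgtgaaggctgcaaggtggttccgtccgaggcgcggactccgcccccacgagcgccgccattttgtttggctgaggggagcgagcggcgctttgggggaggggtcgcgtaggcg

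In the CDK1 window TTTGAA began at bases -69 and -13 from the gene start and, on the other strand, at base 10, with CCAAT on the other strand at -78 and -46, counting to the leftmost base of a match as printed. The first CDK1 window, not printed, held TTTGAA at -161, CCAAT at -150 and TTTAAA at -131 from its own start. The HJURP window held TTTGAA at -111, with CCAAT at -101 and -72 and, on the other strand, at -169 and -139. In CDCA4 TTTGAA lay at -127 and CCAAT at -91. The SMC3 window held TTTGAA on the other strand at -151 and no CCAAT. Over all windows of these genes, TTTGAA was in 5 of 11 (all promoters: 15.2% of 35116), CCAAT in 7 of 11 (34.6%) and TTTAAA in 3 of 11 (12.2%). CDK1, in each of its 2 windows, HJURP and CDCA4 held TTTGAA and CCAAT in the same window. Of all 35116 promoters 5.9% held the pair, which is a share of promoters and not of genes. Both CDK1 windows overlap and CDC25B has 4 windows, so the 11 are not independent, and a match of these letters is a description and not a binding site. TTTAAA stood in the NCAPH window at base 33, where CCAAT lay at -112. The 4 CDC25B windows held CCAAT in 2 of them and no TTTGAA, and the MELK window held none of the 6 motifs searched. No window of the 7 genes had the E2F letters TTTCCCGC (1.63% of all promoters) or TTTGGCGC (0.652%), or the Gli core GACCACCCA (0.236%), on either strand.

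**Figure D1:**
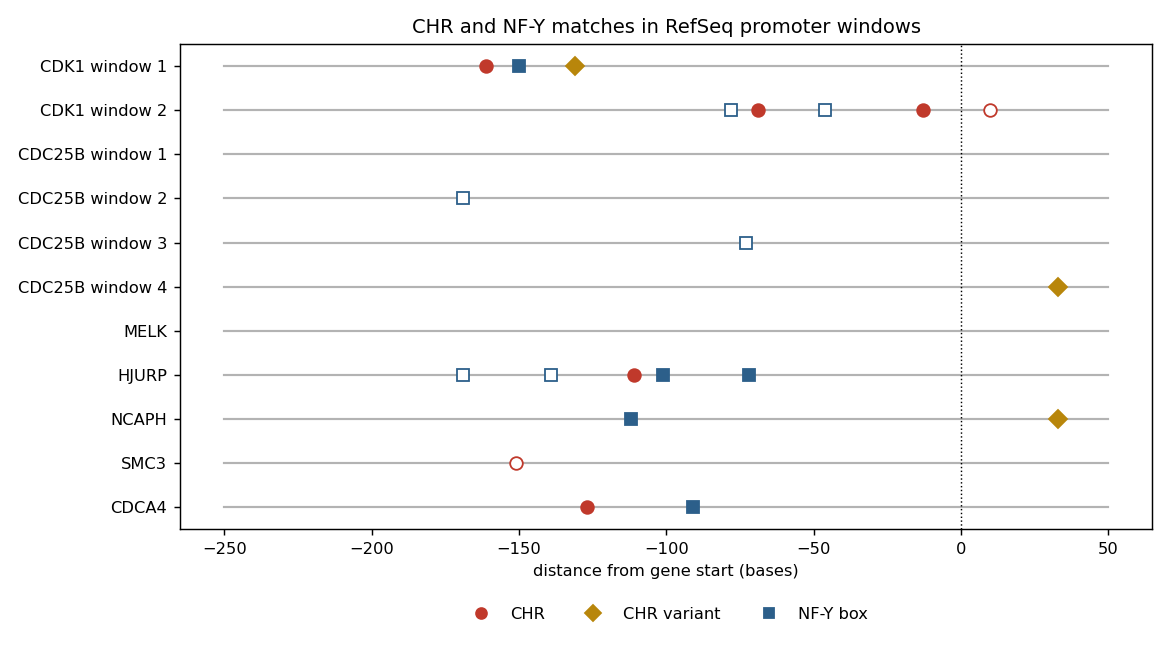
Matches in the 11 RefSeq promoter windows of 7 genes, by distance from the gene start in bases (0 is the start). Circles mark TTTGAA, diamonds TTTAAA and squares CCAAT; filled symbols are on the gene's strand and open ones on the other. CDK1 (in each of its windows), HJURP and CDCA4 hold both TTTGAA and CCAAT in the same window.

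GLI3, the gene that Gli3T derives from, was measured first as a check of the labels (probe set 8139212). It averaged 7.88 ± 0.15 in Gli3T arrays and 9.21 ± 0.10 in empty-vector arrays (SD, n = 3 each), and the groups did not overlap. Its log2 difference was -1.34 ± 0.10 (SE), with an adjusted p of 0.00884 (limma, Benjamini-Hochberg over all probe sets). PTCH1, which encodes the receptor for hedgehog and is a known Gli target, averaged 9.02 ± 0.12 in Gli3T arrays and 8.11 ± 0.17 in empty-vector arrays (SD, n = 3 each), higher by 0.91 (limma, adjusted p = 0.0223). Neither call held when a Gli3T array was left out, with adjusted p-values from limma of 0.0695 to 0.0983 for GLI3 and 0.108 to 0.137 for PTCH1, and PTCH1 had 0.0642 without empty vector replicate 3. Both genes were among the authors' selected genes, chosen on this same comparison. Their p-values are therefore no independent check of the labels, and only the directions are read here. GLI3 was thus lower and PTCH1 higher where the labels place the repressor. The names Gli3T and empty vector therefore stand for what the labels say of an array, and directions depend on them. Where the GLI3 probes lie, and whether they can detect the transfected sequence, was not tested. The Gli genes GLI1 and GLI2 and the target HHIP were not analysed here.

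Empty vector replicate 1 stood apart from the other arrays. Its interquartile range was 2.69 log2, against 2.92 to 3.02 on the other 5 arrays, and its median was 8.53, against 8.38 to 8.42. Its values correlated with those of other arrays at 0.981 to 0.985, while the 3 Gli3T arrays correlated with each other at 0.995 to 0.997, across probe sets, which are not independent replicates. Empty vector replicate 3 overlapped that lower range, at 0.9835 to 0.9874 with the Gli3T arrays, and correlated with replicate 2 at 0.9907. In limma's array weights empty vector replicate 1 had 0.133 and empty vector replicate 3 had 0.372, whereas empty vector replicate 2 had 4.46. Over all probe sets the median SD was 0.08 in Gli3T arrays and 0.18 in empty-vector arrays. Each difference of the 8 genes is therefore also given without empty vector replicate 1.

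In the arrays labelled Gli3T all 8 genes were higher, by 0.67 to 1.01 log2, or 1.59-fold to 2.01-fold, with a median of 0.73. Every Gli3T array lay above every empty-vector array for all 8. Over all 32321 probe sets 11.4% showed that separation, and since the genes were selected on this contrast nothing is read from their count. With limma, 798 probe sets (2.47%) passed an adjusted p of 0.05, 454 of them (1.40%) higher and 344 (1.06%) lower in Gli3T. Which direction held more calls changed with the fit, with 51 higher and 189 lower under the replicate block and 3110 and 3994 with array weights. The count depended on single arrays. It was 2178 without empty vector replicate 1, 548 without replicate 2 and 69 without replicate 3, and limma called 0, 1 and 0 without Gli3T replicate 1, 2 or 3, where 3471, 3751 and 3469 probe sets had an unadjusted p under 0.05. The authors' limits of selection were not given; the smallest absolute difference among their listed genes was 0.58 log2, and of 534 probe sets that were called here and changed at least 1.5-fold, 385 were listed. The median difference of all probe sets was -0.05, and that of the 262 listed genes higher in Gli3T was 0.74. SMC3 was 29th, CDC25B 61st and CDK1 73rd from the top among the 398 listed genes found in the value table, of which 262 were higher in Gli3T. UBE2C was 128th, NCAPH 144th, CDCA4 172nd, HJURP 177th and MELK 179th.

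**Figure D2:**
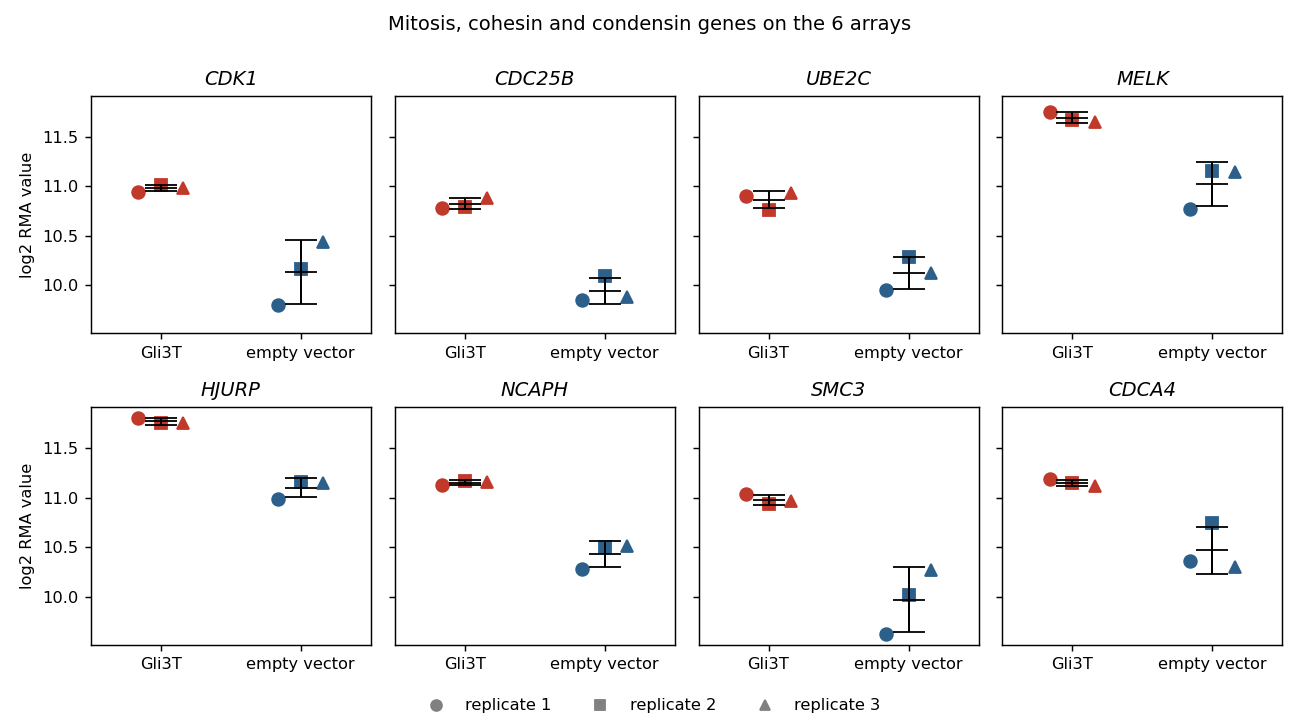
Log2 RMA values of the 8 genes on each array, with Gli3T arrays in red on the left and empty-vector arrays in blue on the right; symbols mark replicates 1, 2 and 3, and bars give the mean ± SD (n = 3). The Gli3T arrays sit close together in each panel and the empty-vector arrays spread more widely below them, with replicate 1 lowest for 7 of the 8 genes.

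**Figure D3:**
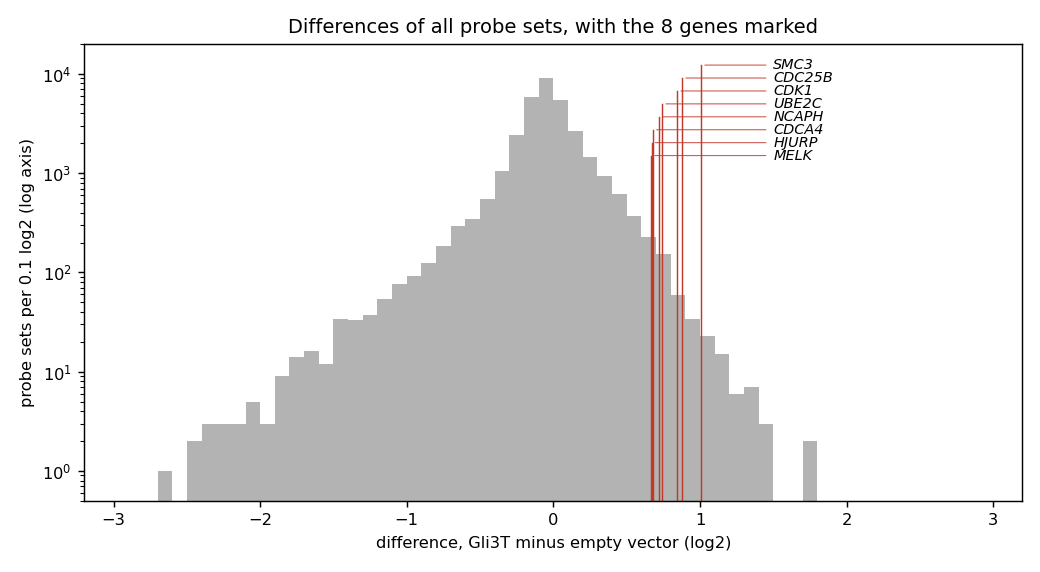
Log2 differences (Gli3T minus empty vector) of all 32321 probe sets, counted in steps of 0.1 log2 on a log axis, with red lines at the 8 genes. The 8 genes lie between 0.67 and 1.01, on the upper slope of the distribution and below its highest values.

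Entry into mitosis was represented by CDK1 and CDC25B. CDK1 (probe set 7927710) read 10.95, 11.01 and 10.99 in Gli3T replicates 1 to 3, against 9.80, 10.17 and 10.44 in empty vector replicates 1 to 3. The Gli3T arrays spanned 0.06 log2 and the empty-vector arrays 0.64, yet the groups did not overlap, with a gap of 0.51 between them. The difference was 0.85 ± 0.19 log2 (SE), or 1.80-fold, and 0.68 without empty vector replicate 1.

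CDC25B encodes a phosphatase that activates CDK1 (probe set 8060675). It read 10.78, 10.80 and 10.89 in Gli3T replicates 1 to 3, against 9.85, 10.09 and 9.88 in empty vector replicates 1 to 3. Here the empty-vector arrays lay close together, within 0.24 log2, and the gap of 0.69 to the Gli3T arrays was the widest of the 8 genes. The difference was 0.88 ± 0.08 log2 (SE), or 1.84-fold, and hardly moved without empty vector replicate 1, at 0.83.

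MELK is a kinase related to AMPK whose message is abundant in dividing cells (probe set 8155214). Its values were 11.75, 11.67 and 11.65 in Gli3T replicates 1 to 3, against 10.77, 11.16 and 11.14 in empty vector replicates 1 to 3. Empty vector replicates 2 and 3 lay close together, and replicate 1 lay 0.38 below their mean. The difference was 0.67 ± 0.13 log2 (SE), or 1.59-fold, and 0.54 without that array. MELK, HJURP and CDCA4, at 0.67, 0.67 and 0.68, could not be ranked within their SEs.

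Exit from mitosis was represented by UBE2C, the ubiquitin-conjugating enzyme that starts chains on targets of the anaphase-promoting complex (probe set 8063043). UBE2C read 10.90, 10.77 and 10.93 in Gli3T replicates 1 to 3, against 9.96, 10.29 and 10.13 in empty vector replicates 1 to 3. Its Gli3T arrays had the widest SD of the 8 genes, 0.09 log2, and the groups were still 0.48 apart. The difference was 0.74 ± 0.11 log2 (SE), or 1.67-fold, and 0.66 without empty vector replicate 1.

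HJURP is the chaperone that places the centromeric histone CENP-A on chromatin (probe set 8059838). It read 11.81, 11.75 and 11.75 in Gli3T replicates 1 to 3, against 10.99, 11.16 and 11.15 in empty vector replicates 1 to 3. This was the tightest of the 8 genes in the empty-vector arrays, with an SD of 0.10. The difference was 0.67 ± 0.06 log2 (SE), or 1.59-fold, and 0.61 without empty vector replicate 1.

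NCAPH, the kleisin subunit that closes the ring of condensin I, is encoded on chromosome 2, as is HJURP (probe set 8043602). Its values were 11.13, 11.17 and 11.16 in Gli3T replicates 1 to 3, against 10.28, 10.50 and 10.51 in empty vector replicates 1 to 3. The Gli3T arrays agreed within 0.04 log2, the closest of the 8 genes. The difference was 0.72 ± 0.08 log2 (SE), or 1.65-fold, and 0.64 without empty vector replicate 1.

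SMC3, an ATPase subunit of the cohesin ring, had the largest difference of the 8 genes (probe set 7930422). It read 11.04, 10.94 and 10.96 in Gli3T replicates 1 to 3, against 9.62, 10.01 and 10.27 in empty vector replicates 1 to 3. SMC3 and CDK1 lie on chromosome 10, and a link of level with chromosome was not tested. As for CDK1, replicate 1 was lowest and replicate 3 highest among the empty-vector arrays. The difference was 1.01 ± 0.19 log2 (SE), or 2.01-fold, and 0.84 without empty vector replicate 1. Without that array SMC3 and CDC25B, at 0.84 and 0.83, could not be ranked within their spread.

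CDCA4, a nuclear protein of the SERTA domain family that acts on E2F-dependent transcription, was split in a different way (probe set 7981525). Its values were 11.18, 11.14 and 11.12 in Gli3T replicates 1 to 3, against 10.36, 10.74 and 10.30 in empty vector replicates 1 to 3. Replicate 3 was the lowest empty-vector array here, and replicate 2 lay 0.37 below the lowest Gli3T array, the narrowest gap of the 8 genes. The difference was 0.68 ± 0.14 log2 (SE), or 1.60-fold, and 0.63 without empty vector replicate 1. With limma's array weights, which count empty vector replicate 2 most, it was 0.44.

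The spread of these genes lay mainly in the empty-vector arrays. Their SDs ran from 0.02 to 0.09 log2 in Gli3T arrays and from 0.10 to 0.33 in empty-vector arrays, and all 8 had the wider range in the empty-vector arrays. Wider spread in those arrays was general. The median SD there was 0.18 against 0.08 in Gli3T arrays over all probe sets, and 0.16 against 0.06 over the listed genes. Empty vector replicate 1 was the lowest of its group for 7 of the 8 genes, all but CDCA4, against 36.1% of all probe sets and 69.8% of the 262 listed genes higher in Gli3T. That array read low for bright probe sets in general. Among the 500 probe sets nearest to each gene in level it lay 0.14 to 0.18 below the mean of replicates 2 and 3 in the median. CDC25B, at -0.14, and CDCA4, at -0.16, deviated no further than such probe sets. HJURP (-0.17), NCAPH (-0.23) and UBE2C (-0.25) lay somewhat lower, MELK stood at -0.38, and CDK1 and SMC3 at -0.51 and -0.52. All 8 differences were smaller without that array, with a median of 0.65. Leaving out empty vector replicate 3 instead moved differences both ways, with a median of 0.75. CDK1 then stood at 1.00 and SMC3 at 1.16, and CDCA4 at 0.60. The RNA quality of empty vector replicate 1 was not tested.

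**Figure D4:**
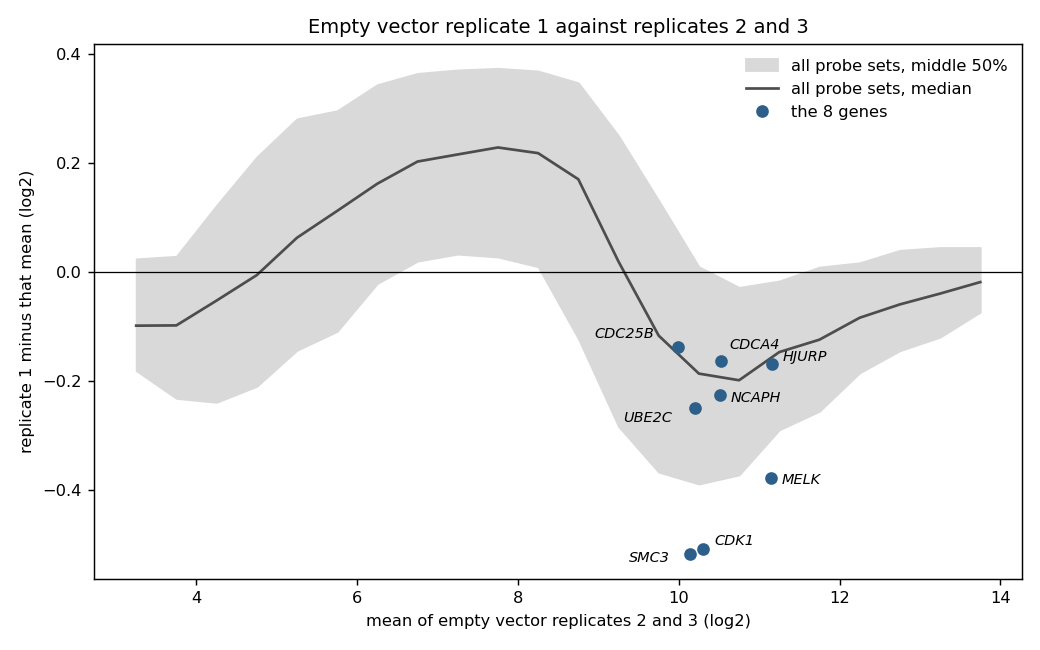
Log2 value in empty vector replicate 1 minus the mean of replicates 2 and 3 (y axis) against that mean (x axis). The line and the grey band give the median and the middle 50% of all probe sets in steps of 0.5 log2, and the points are the 8 genes. CDC25B, CDCA4, HJURP and NCAPH lie near the line, and CDK1 and SMC3 lie lowest, at -0.51 and -0.52.

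The levels over the 6 arrays were compared between genes. Likeness was measured as the root mean square difference between values centred on each gene's own mean, over 6 arrays and among 361 named probe sets at or above the median level, all of them from the authors' selection. HJURP and NCAPH were the most alike of the 8 genes, at 0.045 log2, and CDK1 and SMC3 were 0.094 apart. SMC3 and CDCA4 differed most, at 0.287. The measure includes the difference between the groups, on which all these genes were selected, so it partly reflects the size of that difference. It was 1.01 for SMC3 and 0.68 for CDCA4. For each of the 8 genes other selected genes came closer than any of the 8 did, and none of the 16 nearest was one of them. The 8 are few among the genes compared, so that count does not show that they are unlike each other. Of 360 genes, 4 were nearer to NCAPH than the closest of the 8, 9 to SMC3 and 11 to HJURP. For CDC25B, MELK, CDCA4 and UBE2C 37 to 56 were nearer. Nearest to CDK1 were SOS2 (0.055) and ETV6 (0.073), and 9 of 360 genes were nearer to it than SMC3. Nearest to SMC3 were FCHO2 (0.035) and LONRF3 (0.047). CDC25B was closest to SLC12A7 (0.035) and C14orf4 (0.036), and UBE2C to TTYH2 (0.032) and DENND2D (0.033). SCAMP1 (0.034) and RRM2B (0.037) were nearest to MELK, and AKAP1 (0.021) and NAV1 (0.026) to HJURP. NCAPH had SEMA4B (0.021) and ELF4 (0.026), and CDCA4 had SFXN3 (0.062) and TSKU (0.069).

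The authors' table of selected genes was set against the value table, since its sixth sample column had slipped. All 8 genes stood in rows that were not displaced. Their first 5 sample columns differed from the value table by 0.0216 log2 at most, so those cells were aligned. The sixth did not. For MELK it held 10.72, whereas Gli3T replicate 3 read 11.65 in the value table, and for UBE2C it held 12.05 against 10.93. HJURP, CDC25B and SMC3 were too low there, by -0.66, -0.65 and -0.49, and CDCA4 by -0.23, while NCAPH and CDK1 were too high by 0.50 and 0.14. For CDK1, CDC25B and CDCA4 the cell 2 lines further down matched their value within 0.01 log2, and for the other 5 genes it did not, with gaps of 0.137 (UBE2C) to 3.45 (MELK). Read as headed, the table gave differences of 0.36 for MELK, 0.45 for HJURP, 0.66 for CDC25B, 0.89 for NCAPH and 1.11 for UBE2C, and their order changed. In the value table Gli3T replicate 3 stood with Gli3T replicates 1 and 2 for all 8 genes.

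**Figure D5:**
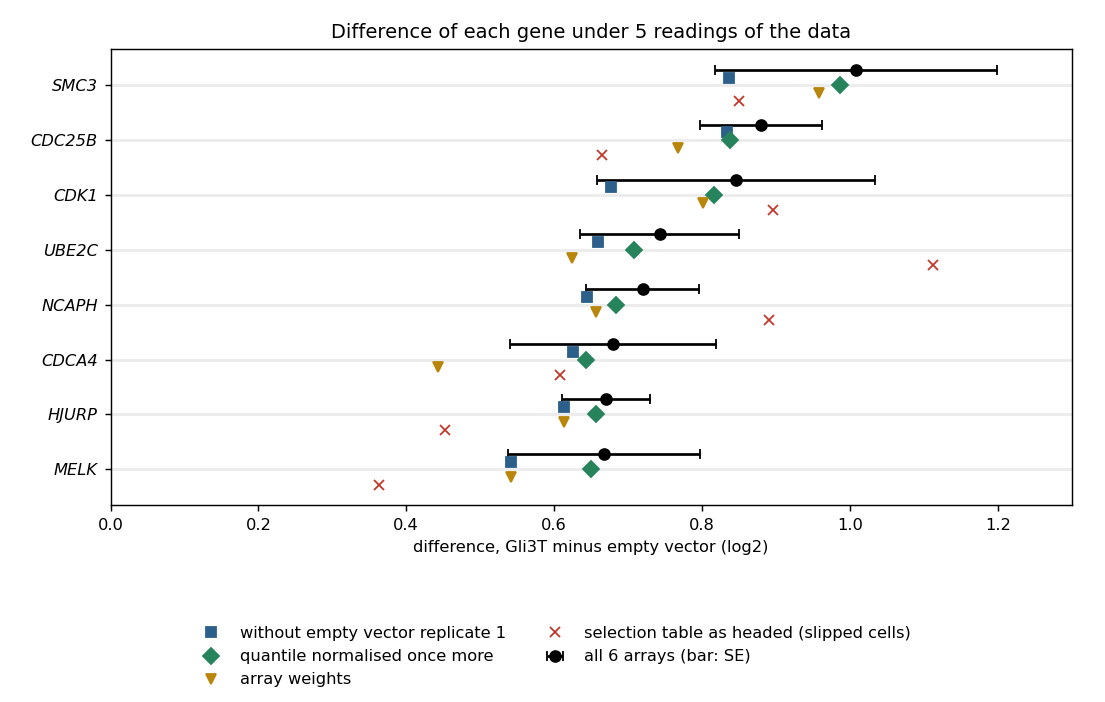
Log2 difference (Gli3T minus empty vector) of each gene from all 6 arrays (black, bar ± SE, n = 3 each), without empty vector replicate 1, after another quantile normalisation, with array weights, and from the authors' selected-gene table as headed with its slipped cells. UBE2C at 1.11 and MELK at 0.36 show the slipped cells, and CDCA4 at 0.44 shows the array weights.

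The rest of the pathway was sought through 13 lists of 206 genes, among them cyclins, the anaphase-promoting complex, the other cohesin and condensin subunits, CENP-A loading factors, kinetochore proteins, mitotic kinesins, replication genes and CDK inhibitors. Symbols were at hand only for the 405 selected genes, and 0 of the 206 were among them. CCNB1, CDC20, CENPA, RAD21, SMC2, MKI67 and the other partners of these 8 genes were thus not analysed here, and whether they changed was not tested. Absence from the 405 means only that the authors' selection, whose limits were not given, did not list them. None of 25 markers of ductal, stromal, blood or other pancreatic cells had a symbol there either, so the labelled cell type was not checked.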

How the data were processed

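The deposited value table holds log2 expression values per probe set for 32321 probe sets on 6 arrays; the submitters' processing notes name RMA, oligo and limma and give no versions. Neither the array annotation nor a build is given in the sources used here. Gene symbols came from the authors' table of 405 selected genes, joined by probe set (398 matched), and 1 column of that table names no sample and was not used. There, 139 rows whose first sample cell was at most 1.0 ran on by 1 cell. Read 1 cell to the left, all 135 of those found in the value table matched it within 0.05 log2 in each of 5 arrays, and 262 of 263 ordinary rows matched as headed, save the sixth column (10 of 263). The value table was used throughout.

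Differences are Gli3T minus empty vector with the SE of both group means, and limma 3.58.1 in R 4.3.3 was fitted to all probe sets with no filter and Benjamini-Hochberg adjustment, after a test on simulated data. Groups came from the titles. Nothing says that the arrays are separate cultures, so p-values measure only the spread between them, and their number limits the precision.

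The 8 genes and the lists were chosen with earlier results of these data known. Named with values were the 8 genes, GLI3, the Gli target PTCH1, and the 2 genes nearest in pattern to each of the 8. List genes that were called or partners of the 8 were to be named as well, but 0 of the 206 had a symbol. Python 3.11.15, pandas 2.3.3 and matplotlib 3.10.9 were used.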

Additional observations from a re-analysis of the deposited data

How the results depend on the processing

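The median difference of the 8 genes was 0.64 to 0.82 log2 under every alternative run, and of 96 single values that a setting could move, 89 moved by less than 1 SD and 0 reversed. A further 32 could not move, as the block, the variance trend and the choice of probe sets tested leave a difference of group means as it is. The 7 that moved were CDC25B (0.77) and CDCA4 (0.44) with array weights, and CDC25B, UBE2C, MELK, HJURP and NCAPH where the slipped column was read as headed. That reading and cyclic loess between arrays (median 0.70) were chosen after seeing the data. Leaving out an array could not reverse a difference, as the groups did not overlap. It could not move a difference by 1 SD either, as the SD was pooled over both groups of 3 arrays. Differences from the first 5 sample columns of the authors' table, which leave out Gli3T replicate 3, come to nearly the same. Many of the 89 were thus fixed in advance, so that count is not read as stability. The count of called probe sets, 798, was 240 with the replicate block, 7104 with array weights, 1292 with a variance trend, 1446 of the 16161 probe sets at or above the median level, and 31 (12 higher, 19 lower) at an adjusted p of 0.01. Among the 398 named probe sets alone all 398 were called, as they had been selected on this contrast. Without empty vector replicate 2, the calls over all probe sets were 225 higher and 323 lower. That count ran from 0 to 2178 when 1 array was left out, with 0 or 1 where a Gli3T array was. The cause was not tested. GLI3, itself a gene selected on this contrast, differed by -1.40 to -1.25 without 1 array. Its adjusted p (limma) was 0.0105 to 0.0983, above 0.05 where a Gli3T array was left out. The replicate block gave 51 higher and 189 lower calls. Deviations of same-numbered arrays correlated at -0.304, -0.142 and 0.0441, and those of pairs with unlike numbers at -0.334 to 0.384. With 3 arrays per group these values cannot tell whether same-numbered arrays were made together. The counts of list genes and the mean of several probe sets per gene were not run, as no list gene had a symbol here. Signal over background was not analysed.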
